A study of Mus musculus with 12 samples.

Results

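The cytokine receptor genes described here encode the chains through which B16F10 melanoma cells can sense interferons (Ifngr1, Ifngr2, Ifnar1, Ifnar2), the IL-6 family (Il6st, Il6ra, Osmr, Lifr), the IL-10 family (Il10rb) and IL-4 or IL-13 (Il4ra). They are the 10 rows of the deposited count table, out of 54232 genes, whose Ensembl identifiers carry these symbols, and that rule uses no measured value. All 10 passed the filter on low counts, and all 10 also passed it when the Tumor libraries were set aside. B16F10 is a melanoma line of C57BL/6 mice, and its RNA was sequenced in 12 libraries, 3 in each of 4 groups. WT cells were cultured and left untreated. The relapsed lines (ITF1, Rel and ITM, 1 library each) were sorted from subcutaneous tumors that came back after immunotherapy with anti-CD40, TNFα and an antibody to TRP1, and were then grown in culture. The Tumor libraries, numbered 1, 3 and 4, came from cells sorted out of relapsed tumors of mice aged 6 weeks at injection by the labels (the methods give an older age for the mice in general), with no culture before the RNA was extracted. The labels call these tumors relapsed, whereas the text of the study places the sort some days after treatment. The Lyso libraries came from cultured B16F10 given granules that CD8+ T cells, activated through CD3 and CD28 in IL-2, had secreted, for 48 h by the labels, whereas the methods give a shorter incubation. Nothing in the sources says whether libraries of 1 group came from separate cultures or animals, so the p-values measure the spread between these libraries. The study asked which genes govern the cell-in-cell state that tumor cells take up after immunotherapy and after contact with such granules.

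These receptors share one design. A cytokine brings together receptor chains that have no enzymatic activity, the JAK kinases bound to the chains become active, and STAT proteins are phosphorylated and move to the nucleus. Interferon gamma binds IFNGR1, with IFNGR2 as the second chain, and type I interferons bind IFNAR2 and IFNAR1; gp130, the product of Il6st, pairs with the IL-6, oncostatin M and LIF receptors and signals mainly through STAT3, while IL-4Rα signals mainly through STAT6.

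Counts on genes ran from 1667398 to 16384021 in WT, from 12749399 to 16402629 in the relapsed lines, from 10895611 to 12675277 in Lyso and from 3102442 to 5049496 in Tumor. WT 1 and WT 2 were shallow and WT 3 was deep. The floor of detection, taken as 3 counts, was thus 1.80 CPM in WT 1 and 0.183 CPM in ITM, by the counts on genes alone. All Tumor libraries were shallower than all Lyso and relapsed libraries, and depth cannot be told apart from group there. All other CPM are counts scaled to a common library size, with TMM, so these floors differ slightly from the scale of the levels. A gene was called at a Benjamini-Hochberg adjusted p under 0.05 in edgeR's quasi-likelihood test, fitted once to all 12 libraries over 14924 genes, and p-values below come from that test unless a permutation test is named. An exact permutation test of 3 against 3 libraries cannot go below p = 0.1. Melanocyte markers were detected in every library, 10 of 10, with a summed level of 19810 to 28450 CPM in WT and 20550 to 22660 CPM in Tumor. Fibroblast markers summed to 10710, 8745 and 7707 CPM in Tumor 1, 3 and 4, against 30 to 39.5 CPM in WT, 19.9 to 31.2 CPM in the relapsed lines and 15.1 to 18.0 CPM in Lyso.

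In the genome, 4 of the receptors lie in one row on chromosome 16 (GRCm38, plus strand). Ifnar2 (91372783 to 91405589) ends 574 bases before Il10rb (91406164 to 91425834), which is followed by Ifnar1 (91485238 to 91507441) and Ifngr2 (91547072 to 91565623). The row spans 192841 bases with 0 other protein-coding genes lying wholly between its members. Osmr (chromosome 15, 6813577 to 6874969, minus strand) and Lifr (chromosome 15, 7090614 to 7197489, plus strand) are also neighbors, 215644 bases apart. Ifngr1 (chromosome 10, 19591949 to 19610229), Il6st (chromosome 13, 112464070 to 112510086), Il6ra (chromosome 3, 89864059 to 89913196, minus strand) and Il4ra (chromosome 7, 125552120 to 125579474) stand alone. A read-through gene, Gm21970, shares 9.46% of the exonic bases of Ifnar2 and 14.9% of those of Il10rb on the same strand. Antisense genes share 9.51% of the exonic bases of Il4ra (Gm44876) and 2.80% of those of Il6ra (Gm42809), and the strand setting of the counting is not given in the sources used here, so reads in those stretches are uncertain.

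Of the 3 interferon receptor genes of that row, Ifnar2 was called in Lyso against WT and Ifnar1 and Ifngr2 were not, and the 250 bases before their RefSeq starts (GRCm38.p6, 5′ to 3′) are shown so that the neighbors can be set side by side.
Ifnar2 chr16:91372533-91372782, plus strand: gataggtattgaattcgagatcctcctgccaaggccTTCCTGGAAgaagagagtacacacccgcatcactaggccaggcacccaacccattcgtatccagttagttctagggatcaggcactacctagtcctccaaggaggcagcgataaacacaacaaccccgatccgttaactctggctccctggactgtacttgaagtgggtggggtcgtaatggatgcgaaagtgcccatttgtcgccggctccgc
Ifnar1 chr16:91484965-91485214, plus strand: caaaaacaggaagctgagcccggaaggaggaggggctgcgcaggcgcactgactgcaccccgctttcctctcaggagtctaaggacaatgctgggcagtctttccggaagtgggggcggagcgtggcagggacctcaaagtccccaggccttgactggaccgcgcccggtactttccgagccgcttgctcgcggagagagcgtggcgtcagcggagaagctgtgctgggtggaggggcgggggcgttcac
Ifngr2 chr16:91546809-91547058, plus strand: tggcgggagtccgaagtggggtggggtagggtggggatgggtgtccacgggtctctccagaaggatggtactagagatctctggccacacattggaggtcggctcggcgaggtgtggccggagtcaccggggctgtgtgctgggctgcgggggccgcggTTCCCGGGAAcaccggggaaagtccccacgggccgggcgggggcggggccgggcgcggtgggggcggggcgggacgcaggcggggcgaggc
Capitals mark motif matches. Both strands of the windows of 9 receptor genes were searched. The letters TTCNNNGAA, the core of a gamma-activated site, which STAT3 can bind, were found before Ifnar2, 214 to 206 bases ahead of the start, and in 7.02% of all 32851 promoters of the table. The same half-sites, TTC and GAA, set 4 bases apart, the spacing that STAT6 prefers, were found before Ifngr2, 91 to 82 bases ahead of the start, and in 5.85% of all promoters. A pair of TTTC runs set 2 bases apart, the core of the interferon-stimulated response element, was in none of the 9 and in 2.98% of all promoters. A match to such short letters is a description of the sequence.

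In untreated cells the mRNAs of the interferon receptor chains and of gp130 were far above those of Osmr, Lifr and Il6ra. This does not hold for every receptor of the gp130 family. Cntfr had 82.8 ± 23.6 CPM and Il11ra1 25.3 ± 3.69 CPM in WT, beside 59.1 CPM for Il6st, all not scaled to length. Per kilobase of exon, Ifngr2 had 17.6 ± 3.47 CPM per kb (SD, n = 3) and Il10rb 16 ± 1.91. Ifnar1 followed with 12.03 ± 1.02, Ifngr1 with 7.39 ± 1.18, Ifnar2 with 7.004 ± 2.16 and Il6st with 5.32 ± 0.30. Osmr stood at 0.512 ± 0.0946 CPM per kb, Lifr at 0.278 ± 0.151, Il4ra at 0.204 ± 0.0976 and Il6ra at 0.134 ± 0.115. Neighbors in that order whose WT libraries overlapped were Ifngr2 and Il10rb, Ifngr1 and Ifnar2, Ifnar2 and Il6st, Lifr and Il4ra, and Il4ra and Il6ra. In Tumor, Il6st (14.0 ± 0.740 CPM per kb) ranked just after Il10rb (16.8 ± 1.17) and next to Ifnar1 (13.1 ± 0.612), with libraries that overlapped those of Ifnar1. Il4ra (6.20 ± 3.35) ranked just after Ifnar2 (8.99 ± 1.42) in Tumor, with overlapping libraries, and Il6ra stayed last (0.379 ± 0.291). With the longest transcript as the length, Il10rb came before Ifnar1 and Ifngr2 in WT, at 21.8, 18.3 and 17.9 CPM per kb.

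**Figure D1:**
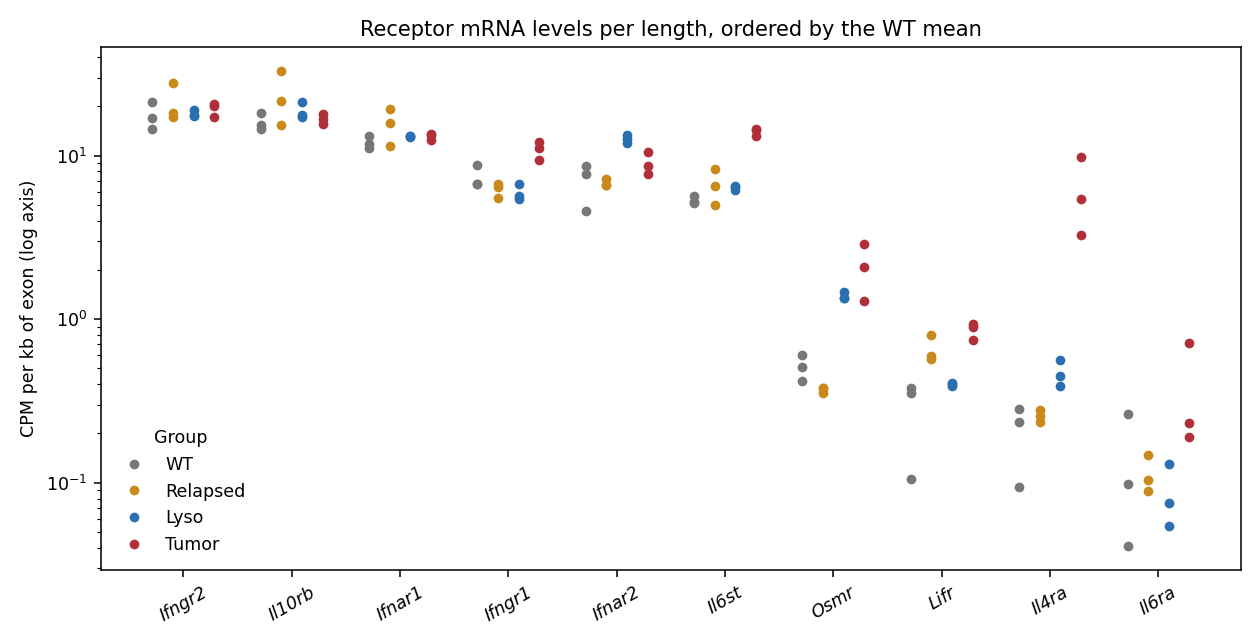
Levels of the 10 receptor mRNAs in CPM per kb of exon (log axis), ordered by the WT mean, with 1 point per library and 3 libraries in each of the 4 groups. Il4ra has its 3 Tumor libraries far above the other 9, and Il6st has its Tumor libraries near the level of Ifnar1.

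Tumor and WT cells were compared by the study to find genes of the state after immunotherapy. WT cells were cultured, and no untreated tumor is among the libraries used here, so that immunotherapy, growth in the mouse and sorting cannot be told apart here. Of the 10 receptor genes, 5 were higher in Tumor than in WT (Il4ra, Osmr, Lifr, Il6st and Ifngr1) and 0 were lower, where 12.1% of all genes tested were called higher and 6.94% lower. The median log2 fold change was 0.98 over the receptors and 0.00142 over all genes tested. DESeq2 also called 5. Cells of the tumor stroma express several of these receptors, and fewer cells of a type cannot be told apart from less RNA per cell in bulk libraries. Markers of fibroblasts (above), of myeloid cells (48.4 to 79.3 CPM summed in Tumor, 12.5 to 29.3 in WT) and of endothelial cells and pericytes (58.1 to 70.9 CPM in Tumor, 9.71 to 18.3 in WT) were higher in the same libraries, with 10 of 10, 8 of 10 and 8 of 10 of them over 3 counts in every Tumor library and none at 0 in all 3. Of the markers that passed the filter without the Tumor libraries, 6 of 6, 3 of 4 and 1 of 3 were called higher than in WT, against 0 of 3 T and NK cell markers and 0 of 3 B cell markers, and of 10 melanocyte markers 1 was higher and 1 lower. Their part in the results on Tumor was not tested.

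Il4ra, the chain shared by the IL-4 and IL-13 receptors, moved most. It had 0.566, 1.69 and 1.42 CPM in WT 1, 2 and 3, from 1, 4 and 24 counts, and 59.2, 19.7 and 32.7 CPM in Tumor 1, 3 and 4, from 182, 98 and 139 counts. The lowest Tumor library was thus well above the highest WT library, although the Tumor libraries differed widely among themselves. The log2 fold change was 4.76 (standard error 0.44, adjusted p = 1.32e-05, edgeR). Osmr, the oncostatin M receptor, had 7.36, 5.07 and 6.19 CPM in WT and 34.8, 25.4 and 15.5 CPM in Tumor 1, 3 and 4. Its groups did not overlap. Tumor 1 was highest and Tumor 4 lowest for Osmr, Il6st, Lifr and Il6ra, as for the fibroblast marker sum, whereas Il4ra and Ifngr1 had their lowest level in Tumor 3. Ifnar1 and Ifngr2, which were not called, had the order of the fibroblast sum too, and what sets such an order of 3 libraries was not tested. The log2 fold change of Osmr was 2.02 (standard error 0.27, adjusted p = 0.000259, edgeR).

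Il6st, which encodes gp130 itself, was the steadiest of the called genes. Its levels were 56.6, 57.8 and 62.8 CPM in WT and 162, 158 and 146 CPM in Tumor, with a narrow spread in both groups and no overlap. The log2 fold change was 1.39 (standard error 0.16, adjusted p = 7.33e-05, edgeR). Lifr, the LIF receptor chain, had 1.13, 3.8 and 4.07 CPM in WT, from 2, 9 and 69 counts, and 10.1, 9.66 and 8.003 CPM in Tumor. WT 1, the shallowest library, was the lowest, and every Tumor library exceeded it and its 2 partners. Its log2 fold change was 1.43 (standard error 0.31, adjusted p = 0.00584, edgeR). Il6ra, the IL-6 binding chain, was near the floor, with 2.26, 0.844 and 0.354 CPM in WT from 4, 2 and 6 counts and 6.18, 2.01 and 1.65 CPM in Tumor from 19, 10 and 7 counts. Its groups overlapped through WT 1, and the log2 fold change, 2.13 with a 95% interval of 0.53 to 3.73, was not called (adjusted p = 0.0624, edgeR). The value rested on single libraries, being 2.78 without WT 1 (adjusted p = 0.0181), 1.07 without WT 3 (adjusted p = 0.423) and 1.37 without Tumor 1 (adjusted p = 0.243, all edgeR). Without the filter on low counts it was called (adjusted p = 0.0186, edgeR).

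Among the interferon receptors, Ifngr1, the ligand-binding chain of the interferon gamma receptor, was called. It had 24.9, 19 and 19.2 CPM in WT and 31.5, 26.8 and 34.6 CPM in Tumor, so that the lowest Tumor library was just above the highest WT library. The log2 fold change was 0.58 (standard error 0.17, adjusted p = 0.0313, edgeR), and 9 of 14 other settings took the call away, with adjusted p up to 0.205 and log2 fold changes of 0.46 to 0.69. Its partner Ifngr2 had 54.5 to 80.4 CPM in WT and 65.2 to 77.7 CPM in Tumor, a log2 fold change of 0.15 with a 95% interval of -0.26 to 0.55. For Ifnar1 the interval was -0.22 to 0.48, for Ifnar2 -0.08 to 0.78 and for Il10rb, the accessory chain of the IL-10 receptor, -0.41 to 0.58. Those 4 genes form the row on chromosome 16, and none of them was called in Tumor against WT, with overlapping libraries in each case.

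**Figure D2:**
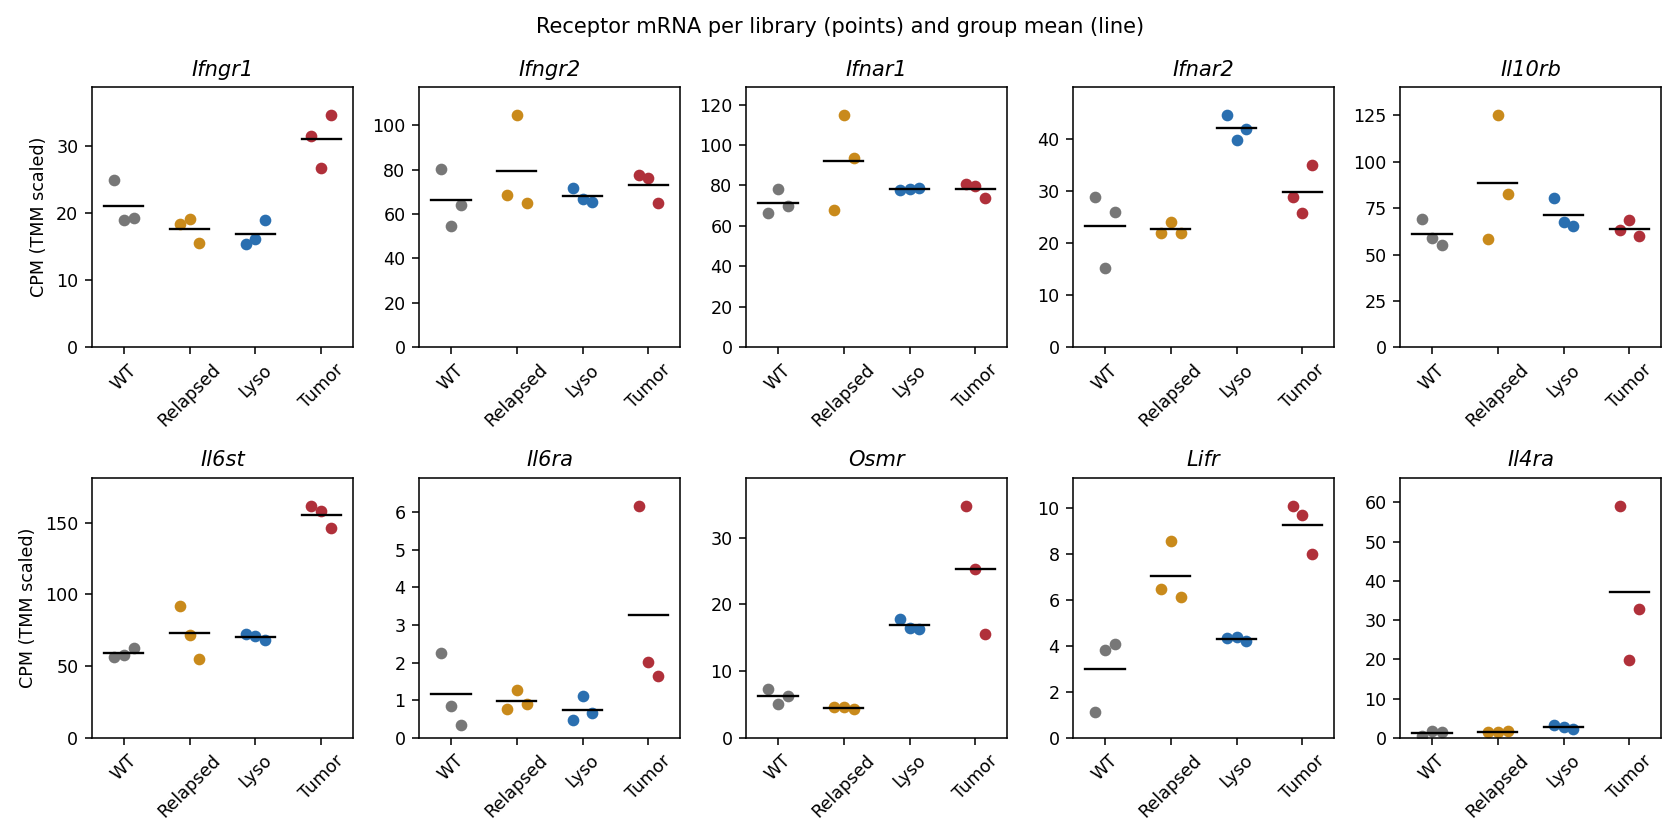
CPM of each receptor gene (linear axis from 0, 1 panel per gene) in every library (points, in the order of the labels) with the group mean (line), n = 3 per group. Il6st, Osmr, Lifr, Il4ra and Ifngr1 have all Tumor points above all WT points. Ifnar2, Osmr, Il4ra, Il6st and Lifr have all Lyso points above all WT points, and of these only Ifnar2 and Osmr were called in Lyso against WT.

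Fewer receptors were called after incubation with T-cell granules than in Tumor, and fewer of all genes tested were called too. In Lyso against WT, 2 of the 10 were higher (Osmr and Ifnar2) and 0 were lower, where 3.5% of all genes tested were called higher and 1.21% lower. The median log2 fold change was 0.25 over the receptors and -0.00481 over all genes. DESeq2 also called 2. Osmr had 17.8, 16.4 and 16.4 CPM in Lyso 1, 2 and 3, a tight group with no overlap with WT. Its log2 fold change was 1.45 (standard error 0.26, adjusted p = 0.00745, edgeR). Ifnar2, the chain of the type I interferon receptor that binds the ligand with high affinity, had 28.9, 15.2 and 25.9 CPM in WT and 44.6, 39.8 and 41.9 CPM in Lyso. WT 2 was the lowest, and the Lyso libraries lay above all WT libraries. The log2 fold change was 0.84 (standard error 0.19, adjusted p = 0.0247, edgeR). The call of Ifnar2 was lost when any 1 Lyso library was left out, with adjusted p of 0.102, 0.0624 and 0.0824 without Lyso 1, 2 and 3 (edgeR) and log2 fold changes of 0.80 to 0.89. Of 10 fibroblast markers 1 was called higher in Lyso, Thy1 (2.74 ± 1.14 CPM against 0 counts in WT), and 2 lower, Col1a1 and Postn. T and NK cell markers summed to 10.04 to 11.8 CPM against 1.27 to 6.79 in WT, B cell markers to 3.89 to 7.08 CPM against 0 to 0.422, and myeloid markers to 33.5 to 37.2 CPM against 12.5 to 29.3. Of the markers that passed the filter without the Lyso libraries (1, 0 and 5), 0 were called. Their part in the result was not tested.

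The other 8 receptors were not called in Lyso. Il4ra had 3.39, 2.701 and 2.35 CPM in Lyso, from 36, 29 and 29 counts, each above the 3 WT libraries, and its log2 fold change was 1.05 (95% interval 0.03 to 2.07, adjusted p = 0.254, edgeR). Il6st had 72.5, 70.9 and 68.5 CPM, each also above the 3 WT libraries, and a log2 fold change of 0.25 (interval -0.09 to 0.59). Lifr lay narrowly above WT in each Lyso library, at 4.34, 4.38 and 4.21 CPM (log2 fold change 0.33, adjusted p = 0.681, edgeR). How many of all genes tested separate in this way was not counted. Within the chromosome 16 row, the interval was -0.24 to 0.72 for Il10rb, -0.22 to 0.48 for Ifnar1 and -0.36 to 0.44 for Ifngr2. Ifngr1 had 15.5, 16.1 and 19.03 CPM in Lyso, with a log2 fold change of -0.29 (interval -0.66 to 0.07). Against WT 3 alone, the control library nearest to Lyso in depth and a comparison with no test, the log2 fold changes were 1.45 for Osmr, 0.70 for Ifnar2 and 0.99 for Il4ra.

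**Figure D3:**
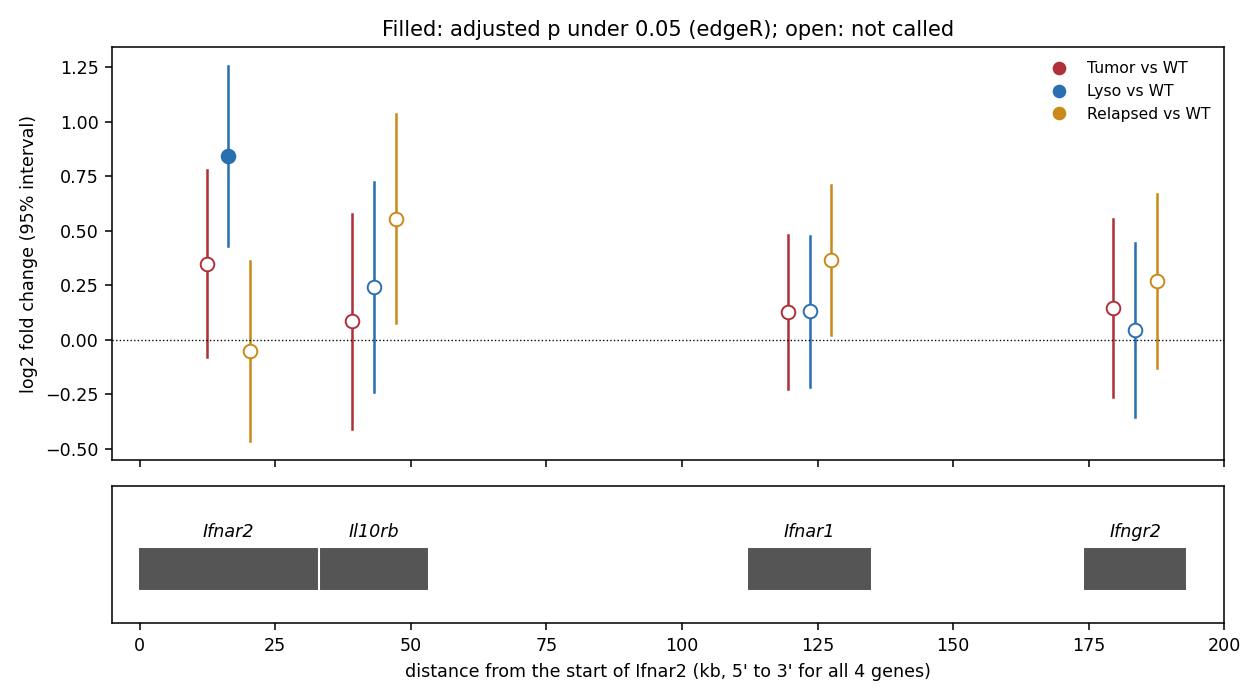
Log2 fold changes against WT (points, with 95% intervals, Tumor, Lyso and relapsed lines side by side) of the 4 receptor genes on chromosome 16, drawn over a map of the genes by distance from the start of Ifnar2 in kb. Ifnar2 in Lyso is the 1 filled point, called by edgeR, and its neighbor Il10rb, 574 bases away, has an interval in Lyso that includes 0.

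Since WT cancels, the contrast of Tumor and Lyso tests whether their differences from WT are unequal. Of the 10 receptors, 5 were higher in Tumor than in Lyso (Il4ra, Il6ra, Il6st, Lifr and Ifngr1) and 0 lower, where 14.2% of all genes were called higher and 10.5% lower. The log2 fold change was 3.71 for Il4ra (adjusted p = 1.41e-05, edgeR), 1.14 for Il6st (adjusted p = 0.000186, edgeR) and 1.10 for Lifr (adjusted p = 0.0110, edgeR). It was 0.87 for Ifngr1 (adjusted p = 0.00177, edgeR) and 2.04 for Il6ra (adjusted p = 0.0275, edgeR), whose Lyso libraries held 5 to 12 counts and whose call was lost without Lyso 1, Lyso 3 or Tumor 1. Osmr did not pass, at 0.57 (95% interval 0.07 to 1.07, adjusted p = 0.0933, edgeR), with overlapping libraries; without Tumor 4, its lowest Tumor library, it passed (0.83, adjusted p = 0.0104, edgeR), as it did with the replicate number as a block (0.78, adjusted p = 0.0277, edgeR). Ifnar2 was lower in each Tumor library (28.9, 25.8 and 35.1 CPM) than in each Lyso library, with a log2 fold change of -0.49 (adjusted p = 0.0705, edgeR), and it passed with DESeq2 (adjusted p = 0.0451), in a fit of only these groups (adjusted p = 0.00585, edgeR) and with the replicate block (-0.74, adjusted p = 0.0384, edgeR).

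The relapsed lines, which came from tumors after immunotherapy and were then cultured, showed whether receptor levels differed from WT after culture. Of the 10 receptors, 0 were called by edgeR or DESeq2, where 0.0134% of all genes were called higher and 0.0268% lower. At an unadjusted p under 0.05 in edgeR's test, 3 of the 10 receptors passed, as did 1636 of all 14924 genes tested. Lifr had 6.45, 8.57 and 6.11 CPM in ITF1, Rel and ITM, each above the WT libraries, with a log2 fold change of 1.04 (95% interval 0.40 to 1.67, adjusted p = 0.227, edgeR). The other 2 were Il10rb (58.3, 125 and 82.6 CPM, adjusted p = 0.387, edgeR) and Ifnar1 (68.0, 115 and 93.6 CPM, adjusted p = 0.423, edgeR). In both, and in Ifngr2 (68.7, 105 and 65.1 CPM), the Rel line was the highest of all 12 libraries. Il4ra had 1.54, 1.41 and 1.68 CPM in these lines and Ifngr1 18.4, 19.1 and 15.6 CPM, and both overlapped WT. Osmr, with 4.61, 4.62 and 4.25 CPM, lay below the WT libraries in each line, with a log2 fold change of -0.45 (interval -1.04 to 0.14).

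With the relapsed lines as the reference, 4 receptors were higher in Tumor (Il4ra, Osmr, Il6st and Ifngr1) and 0 lower, where 11.8% of all genes were called higher and 7.74% lower. Their log2 fold changes were 4.57, 2.48, 1.09 and 0.81, with adjusted p of 3.15e-06, 1.67e-05, 0.000252 and 0.00334 (edgeR). Lifr did not pass, at 0.39 (95% interval -0.18 to 0.96). In Lyso against the relapsed lines, both deep groups, 2 receptors were higher (Osmr and Ifnar2) and 0 lower, where 4.87% of all genes were called higher and 2.81% lower. Osmr differed by 1.91 (adjusted p = 0.000487, edgeR) and Ifnar2 by 0.89 (adjusted p = 0.00945, edgeR), and the call of Ifnar2 was lost without Lyso 1 (adjusted p = 0.0544, edgeR). These comparisons share libraries with the ones above and are no separate support for them.

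**Figure D4:**
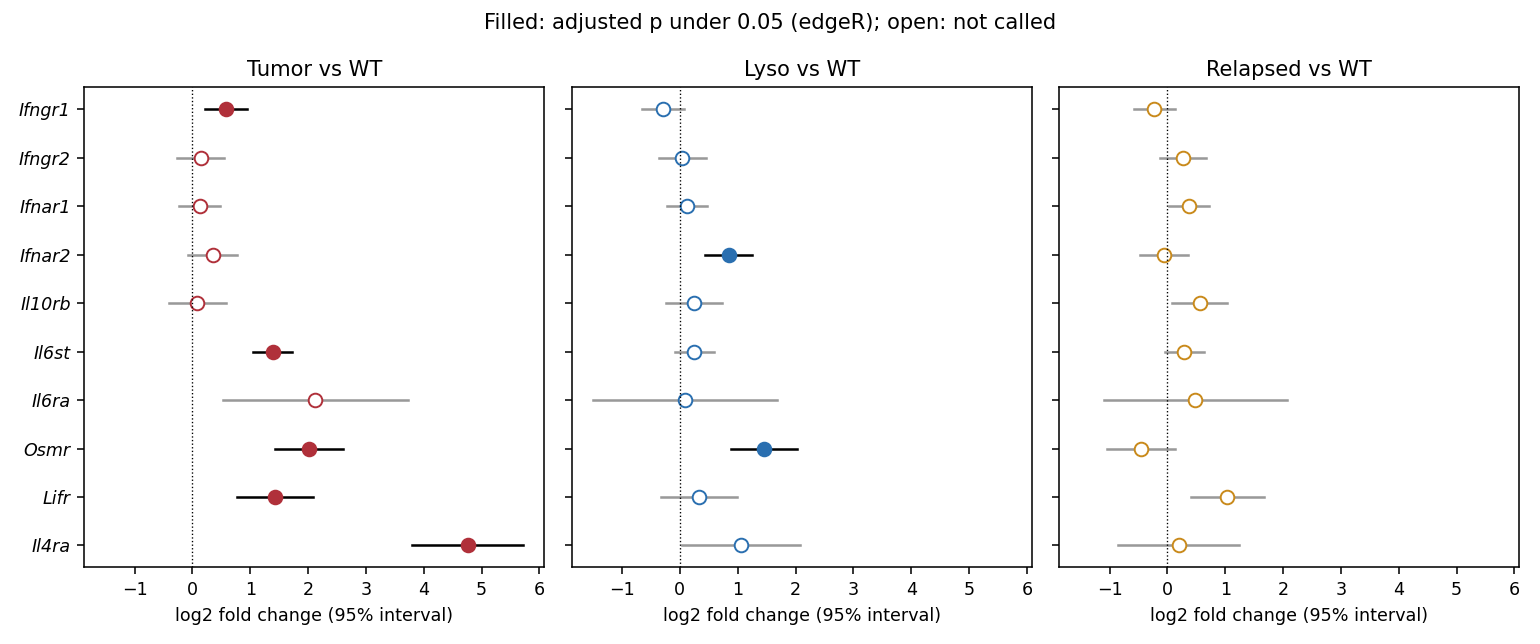
Log2 fold changes of the 10 receptor genes against WT with 95% intervals, in Tumor, Lyso and the relapsed lines (1 panel each, n = 3 libraries per group). Filled points were called by edgeR, 5 in Tumor, 2 in Lyso and 0 in the relapsed lines.

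A receptor works as a pair of chains, and the ratio of the chains' mRNA within a library does not depend on the scaling between libraries. Ifnar2 per Ifnar1, both per kb, was 0.778, 0.347 and 0.660 in WT and 1.03, 0.906 and 0.949 in Lyso, without overlap (exact permutation p = 0.1, two-sided). Ifngr1 per Ifngr2 was 0.422 ± 0.0346 (SD, n = 3) in WT and 0.568 ± 0.121 in Tumor, and it was 0.330 ± 0.0504 in Lyso and 0.304 ± 0.0578 in the relapsed lines. Tumor lay above WT and the other groups below it, each without overlap and at the smallest exact permutation p, 0.1. Osmr per Il6st was 0.0966 ± 0.0202 in WT, 0.219 ± 0.00668 in Lyso (no overlap) and 0.0585 ± 0.0123 in the relapsed lines (no overlap, below WT), each with an exact permutation p of 0.1. In Tumor it was 0.197, 0.147 and 0.0974, which overlapped WT (exact permutation p = 0.2). Lifr per Il6st was 0.103 ± 0.0268 in the relapsed lines and 0.0517 ± 0.0269 in WT (exact permutation p = 0.1), and its Tumor and Lyso libraries overlapped those of WT. The 5 ratios were compared with WT in 3 groups, 15 comparisons of which none can pass an adjusted threshold at this number of libraries.

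**Figure D5:**
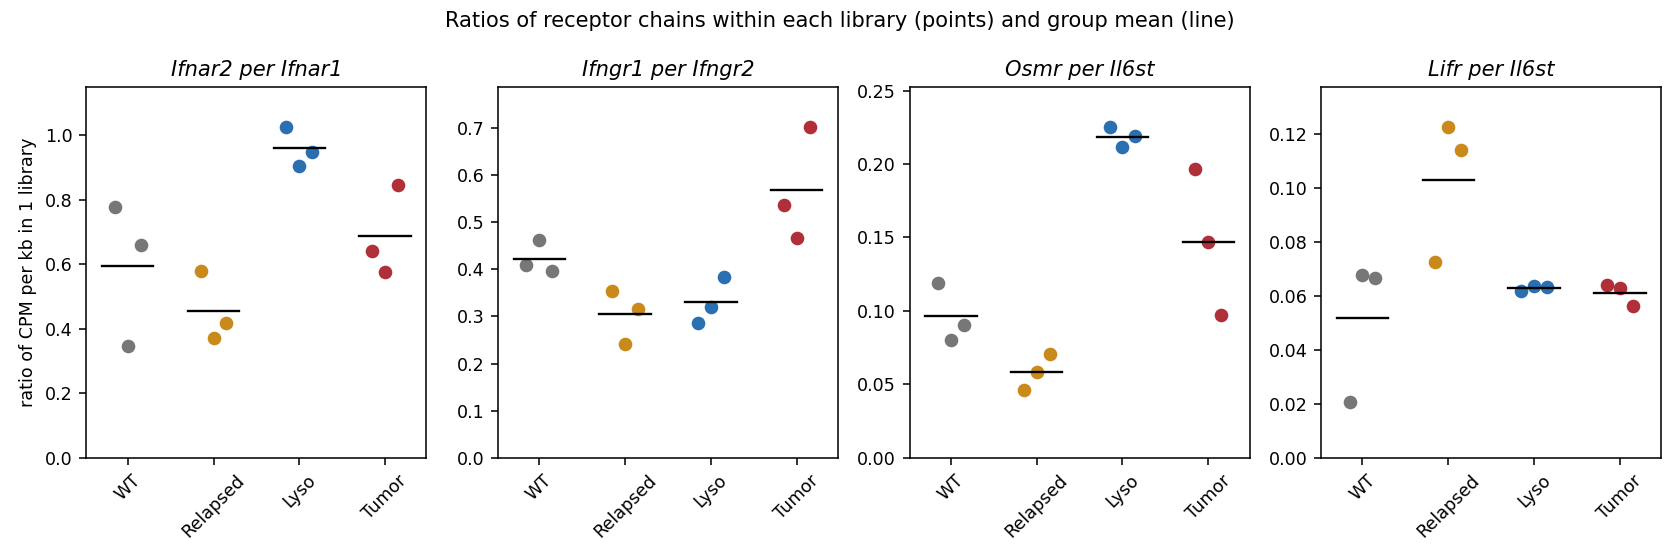
Ratio of the mRNA of 2 receptor chains in CPM per kb within each library (points) and group mean (line), n = 3 per group. The 3 Lyso libraries lie above WT for Ifnar2 per Ifnar1 and for Osmr per Il6st, and the 3 Tumor libraries lie above WT for Ifngr1 per Ifngr2.

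The ligands of these receptors were mostly at or near 0. None of 10 interferon genes passed the filter, and Ifng was at 0 counts in every WT and relapsed library and at 0.0785 ± 0.136 CPM in Tumor and 0.198 CPM on average in Lyso. Calls in the list of gp130 ligands are reported in part here. Il6, the ligand of Il6ra and gp130, had 29.1 ± 2.71 CPM (SD, n = 3) in Tumor and 0.177 ± 0.306 CPM in WT. It passed the filter only through the Tumor libraries, so its test against WT is not used. Osm, which encodes oncostatin M, had 0.508 ± 0.128 CPM in Tumor and 0 counts in WT and was not tested. In Lyso against WT, 4 of the 6 gp130 ligands tested passed the filter without the Lyso libraries. Of those 4, 0 were called, where 3.5% of all genes tested were called higher and 1.21% lower. Of 7 ligands of the IL-4 and IL-10 families only Il4 was tested, and it was called in no comparison (median -0.25 in Tumor and -0.12 in Lyso). Il4 passed the filter without the Tumor libraries but not without the Lyso libraries.

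Among 16 related receptor genes, 7 passed the filter without the Tumor libraries, and 1 of them was higher in Tumor than in WT, 0 lower (median 0.20), beside the 12.1% and 6.94% of all genes. In Lyso against WT, 6 of the related genes passed the filter without the Lyso libraries. Of those 6, 0 were called, where 3.5% of all genes were called higher and 1.21% lower. Il13ra1, the other chain of the receptor for IL-4 and IL-13, had 33.9 ± 5.01 CPM in Tumor and 10.5 ± 3.05 CPM in WT (log2 fold change 1.61, adjusted p = 0.00427, edgeR). Il2rg, the common gamma chain, had 2.21 ± 0.721 CPM in Tumor against at most 1 count in any WT library, and Tumor against Lyso did not call it (adjusted p = 0.158, edgeR). Il13ra2, an IL-13 receptor with a short cytoplasmic tail, had 3.05 ± 1.72 CPM in Tumor and 0 counts in WT and Lyso. Il2rg and Il13ra2 entered the test only through the Tumor libraries, so their tests against WT are not used. Of 11 IL-4 and STAT6 targets 1, Cish, passed the filter without the Tumor libraries, and it was not called in Tumor against WT. Mrc1 (6.41 ± 1.89 CPM in Tumor) and Ccl11 (24.9 ± 7.80 CPM) had 0 counts in WT and entered the test only through Tumor. Mrc1 is also expressed by macrophages and Ccl11 by fibroblasts. In Lyso, Cish was called higher than in WT (10.2 ± 0.577 and 1.68 ± 0.399 CPM, adjusted p = 0.0116, edgeR).

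Of 12 JAK and STAT genes, 11 were tested, with 3 higher in Tumor than in WT and 4 in Lyso, and 0 lower in either (medians 0.33 and 0.64). Over all genes tested, 12.1% were called higher in Tumor and 3.5% in Lyso. Stat3, the main transducer below gp130, had 53.8 ± 7.63 CPM in WT, 288 ± 18.7 CPM in Tumor (log2 fold change 2.40, adjusted p = 1.72e-06, edgeR) and 554 ± 1.14 CPM in Lyso (3.35, adjusted p = 2.61e-06, edgeR). Jak2 and Jak3 were called in both, and Stat2 was called in Lyso, at 200 ± 2.31 CPM against 17.7 ± 9.90 in WT, with the difference between Lyso and Tumor also called (adjusted p = 0.000416, edgeR). Stat6 was called in neither. Of 18 inhibitors of receptor and JAK-STAT signaling, 2 were higher and 1 lower in Tumor (median -0.02), shares close to the 12.1% and 6.94% of all genes, and 4 were higher and 0 lower in Lyso (median 0.24), where 3.5% and 1.21% of all genes were. Socs3, which binds gp130 and blocks its JAKs, had 8 ± 2.14 CPM in WT, 96.6 ± 29.3 in Tumor (adjusted p = 2.05e-06, edgeR) and 107 ± 2.98 in Lyso (adjusted p = 2.50e-05, edgeR). Ptpn6 was the other gene higher in Tumor and Socs5 the lower one, and Socs1, which restrains interferon receptors, Socs2 and Cish were the others in Lyso. Socs1 had 88.1 ± 3.59 CPM in Lyso and 2.60 ± 2.32 in WT (log2 fold change 4.56, adjusted p = 0.000212, edgeR).

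Downstream, 12 of 14 STAT3 targets passed the filter without the Tumor libraries, and 9 of them were higher in Tumor, 0 lower (median 2.33). In Lyso 6 of 13 tested were higher, 0 lower (median 1.17). The list holds Osmr and Il4ra, along with Stat3 and Socs3, so it is not separate from the receptors. Of 20 interferon targets, 9 were higher in Tumor and 13 in Lyso, 0 lower (medians 1.93 and 4.33). Ciita, 1 of the 13, was in the test only through Lyso. In Tumor against Lyso, 12 of the 20 targets were lower and 1, Cxcl9, higher. For both lists, the shares over all genes tested were 12.1% higher and 6.94% lower in Tumor against WT. They were 3.5% and 1.21% in Lyso against WT, and 14.2% and 10.5% in Tumor against Lyso. Irf1, a first target of interferon gamma, had 10.1 ± 6.92 CPM in WT, 91.1 ± 72.6 in Tumor (adjusted p = 0.00198, edgeR) and 721 ± 54.8 in Lyso (adjusted p = 0.000193, edgeR). The receptor chains for interferon gamma were not called in Lyso, where 13 of these targets were. In the relapsed lines 0 genes of any of these lists were called (medians -0.44 for the interferon targets and -0.06 for the STAT3 targets). Over all genes tested, only 0.0134% were called higher and 0.0268% lower there, so a count of 0 says little about these lists.

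The genes most like each receptor called against WT were taken by Pearson's r of log2 CPM over the 12 libraries, as a description in which the group differences shared by many genes and the unequal depth weigh on every value. For Il4ra they were Chst2 (r = 0.981), Fam20a (0.979) and Cyp4b1 (0.978), and for Osmr they were Sh3bp5 (0.964), Tbrg1 (0.949) and Selenow (0.945). For Il6st they were Pla1a (0.984), Ebf3 (0.980) and Aire (0.977), for Lifr Arhgap10 (0.973), Elk3 (0.952) and Tmed10-ps (0.942), and for Ifngr1 Gem (0.972) and Trim33 (0.966). For Ifnar2 they were Trafd1 (0.954), Muc1 (0.952) and Rnf213 (0.943).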

How the data were processed

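RNA of B16F10 cells was sequenced in 12 libraries (4 groups of 3, taken from the sample titles). The authors trimmed reads with fastp 0.19.6, aligned them to GRCm38 with STAR 2.7.1a and deposited raw counts per gene, without normalization, and the processing notes also name DESeq2 1.24.0. Row names of the table are those of STAR's gene counts, which leave out reads shared by several genes. Of all reads, 36.2% to 39.4% fell on genes, and the 4 rows that name no gene were left out. Symbols came from a GENCODE annotation (release M21), which named 54079 of 54232 identifiers, and the authors' own release and strand setting are not given in the sources used here.

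The counts were tested with edgeR 4.0.16 (TMM, filterByExpr by group, glmQLFit and glmQLFTest, 1 fit of 12 libraries) in R 4.3.3, with Benjamini-Hochberg adjustment over 14924 genes. The study's methods use DESeq2, which served as an alternative (version 1.42.0). The standard error was taken as the fitted log2 difference divided by √F. Levels per kb use the total exonic length. The steps were tested on counts simulated at the depths of these libraries, with a dispersion of 0.05. In the simulated Tumor group 200 genes were changed, equal numbers by 2-fold and by 4-fold. For Tumor against WT, edgeR called 40 genes of the 2-fold set, 96 of the 4-fold set and 2 unchanged genes. Most 2-fold changes were thus missed in that setting. Promoters came from RefSeq. Receptors and gene lists were chosen with earlier results of these data known. All 10 receptors are named, and from other lists those with the smallest adjusted p, up to 4 per comparison, or those covered by a small count, and Stat6, Osm and Ifng, which were chosen after their values were seen. Some genes that the naming rule covers, among them 1 called gp130 ligand, are not reported here. The alternatives were DESeq2, RLE or library-size scaling, no or a stricter filter, a fold minimum, a fit of 2 groups, each library left out, a replicate block, WT libraries of like depth as controls, and the longest transcript as the length. Intervals and floors cover counting or library spread only.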

Additional observations from a re-analysis of the deposited data

How the results depend on the processing

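In none of these alternatives did a called receptor change direction. When at least 10 counts were asked of every library, Il6ra, Lifr and Il4ra, which had few counts in WT, left the test. The called receptors fell to 3 in Tumor against WT and 2 in Tumor against Lyso for that reason. None of the called receptors that stayed in the test lost its call. With a log2 fold change over 1 also required, 1 was called in Lyso against WT and 1 in Lyso against the relapsed lines. With 1 library left out in turn, the number called ranged from 4 to 6 in Tumor against WT, 1 to 2 in Lyso against WT, 0 to 0 in the relapsed lines against WT, 4 to 6 in Tumor against Lyso, 4 to 6 in Tumor against the relapsed lines and 1 to 2 in Lyso against the relapsed lines. Il6st, Osmr, Lifr and Il4ra in Tumor against WT kept their calls in every setting that tested them, with adjusted p up to 0.000675, 0.00482, 0.0317 and 0.000782 and log2 fold changes of 1.32 to 1.44, 1.74 to 2.28, 1.21 to 1.81 and 4.28 to 5.07 (edgeR and DESeq2). Osmr in Lyso against WT also kept its call, with adjusted p up to 0.0444. Ifngr1 in Tumor against WT was lost in 9 of 14 settings and Ifnar2 in Lyso against WT in 4 of 14.

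Libraries of WT, Lyso and Tumor that have a number in common showed no sign of pairing, as their deviations from the group means correlated at -0.008 to 0.065. With so few libraries, some of them shallow, such a check cannot exclude a pairing. With the replicate block, 4 receptors were called in Tumor against WT, where Ifngr1 was lost (adjusted p = 0.205), 2 in Lyso against WT and 6 in Tumor against Lyso, where Osmr (higher) and Ifnar2 (lower in Tumor) were gained and Il6ra was not in the test (edgeR). A floor of 3 counts in WT 1 stands for 1.80 CPM by the counts on genes alone, without TMM. That is above the mean WT levels of Il4ra and Il6ra, so depth limits the size given for those receptors.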
